A study of Mus musculus with 13 samples.

Results

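The expression of 10 genes of airway secretion and mucosal defence was compared between lungs with bleomycin-induced fibrosis and control lungs, and between mice with and without cannabinoid receptor 1 (CB1R). The genes were Scgb1a1, Scgb3a1, Scgb3a2, Cyp2f2, Bpifa1, Bpifb1, Muc5b, Muc5ac, Reg3g and Ltf, taken by symbol from a table of 20270 genes. All 10 were found and all 10 passed the filter on low counts that left 15315 genes for testing. RNA was sequenced from the lower right lung lobe of 13 mice. Control mice (n = 4, numbers 3, 21, 24 and 26) and wildtype (WT) bleomycin mice (n = 5, numbers 4, 2, 5, 4-B2 and 7) were male C57BL/6J animals of 13 weeks. CB1R KO bleomycin mice (n = 4, numbers 8, 9, 10 and 11) carried a Cnr1-/- deletion in the whole animal on a C57BL/6J background, and their age and sex are not given in the sources used here. WT libraries 4 and 4-B2 carry the same mouse number, and neither whether they came from 1 animal nor what B2 and the capitals in some labels stand for is given. They are counted as separate samples here, and their values differed (Muc5ac had 9.12 and 50.6 CPM). Bleomycin was given once into the oropharynx, at 1 U per kg, 14 days before collection, whereas controls had received the saline vehicle. No CB1R KO mouse without bleomycin is analysed here, so an effect of the genotype in the uninjured lung cannot be told apart from an effect on the response to bleomycin.

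The conducting airways of the mouse are lined largely by club cells, which secrete secretoglobins and hold cytochrome P450 enzymes that metabolise inhaled compounds. Mucous (goblet) cells are rare in the healthy mouse lung and appear when club cells take on a mucous programme, as happens under type 2 cytokines. Airway epithelium also releases proteins that bind or starve microbes, among them the BPI-fold proteins, the lectin Reg3g and the iron-binding lactoferrin (Ltf), and some of these are made by airway glands and neutrophils as well.

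The regions just upstream of the genes are shown because members of this group differed in whether they rose or fell after bleomycin. Of the 10 genes, 6 had an entry among the RefSeq promoters (build GRCm38.p6), namely Scgb3a1, Cyp2f2, Bpifa1, Bpifb1, Reg3g and Ltf, and Scgb1a1, Scgb3a2, Muc5b and Muc5ac were not matched. The 250 bases before the start are printed for Cyp2f2, which fell, for Reg3g and Ltf, which rose, and for Bpifb1, which followed Reg3g most closely between mice. Each runs 5′ to 3′ on the strand of its gene and ends at the base before the annotated start. Capitals mark matches, on either strand, to 7 short motifs. The letters searched were TATAAA for a TATA box. Forkhead factors such as FOXA1 were represented by TGTTTNC, in which N is any base. The letters CTCAAG stood for NKX2-1, the lung epithelial homeobox factor. A motif of the C/EBP family was TTGC and AA with 2 free bases between them. For STAT6 and STAT3 the parts TTC and GAA had 4 and 3 free bases between them, respectively. NF-kB was searched as GGGA and CC with 4 free bases between. Where matches overlap, their capitals run together.
Cyp2f2, chr7:27119705-27119954, + strand: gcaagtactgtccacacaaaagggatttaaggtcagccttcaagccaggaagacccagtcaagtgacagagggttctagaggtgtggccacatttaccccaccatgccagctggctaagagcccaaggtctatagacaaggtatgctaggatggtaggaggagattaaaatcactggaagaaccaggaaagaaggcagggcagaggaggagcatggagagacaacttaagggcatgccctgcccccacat
Reg3g, chr6:78468875-78469124, - strand: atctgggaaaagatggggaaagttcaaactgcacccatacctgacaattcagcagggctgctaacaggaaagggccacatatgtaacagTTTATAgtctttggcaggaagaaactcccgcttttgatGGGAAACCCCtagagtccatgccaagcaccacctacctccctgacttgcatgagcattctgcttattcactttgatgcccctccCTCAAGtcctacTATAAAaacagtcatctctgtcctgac
Ltf, chr9:111019042-111019291, + strand: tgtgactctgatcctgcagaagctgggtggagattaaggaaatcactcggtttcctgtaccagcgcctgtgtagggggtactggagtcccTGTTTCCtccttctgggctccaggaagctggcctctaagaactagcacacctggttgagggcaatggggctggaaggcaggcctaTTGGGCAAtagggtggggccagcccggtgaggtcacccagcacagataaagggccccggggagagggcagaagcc
Bpifb1, chr2:154190568-154190817, + strand: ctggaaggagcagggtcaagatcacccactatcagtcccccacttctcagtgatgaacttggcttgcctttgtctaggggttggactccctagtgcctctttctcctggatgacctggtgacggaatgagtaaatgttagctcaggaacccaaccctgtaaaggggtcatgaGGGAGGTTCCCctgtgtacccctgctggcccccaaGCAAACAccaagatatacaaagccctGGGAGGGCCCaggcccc
The window of Cyp2f2 held no match to the 7 motifs. Reg3g had a TATA match from 27 to 22 bases before its start and another, on the opposite strand, from 161 to 156 bases before it, an NKX2-1 match and an NF-kB match. Bpifb1 had a forkhead match and 3 NF-kB matches, 2 of which overlapped, and Ltf had a forkhead and a C/EBP match. Among the 6 windows, 3 held the forkhead letters (17.8% of all 32851 such windows), 3 those of NKX2-1 (13.3%), 2 those of NF-kB (17.6%), 2 a TATA box (12.4%), 1 those of C/EBP (9.56%), 1 those of STAT3 (7.02%) and 0 those of STAT6 (5.85%). These matches describe letters only.

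Per unit of transcript length, the 10 genes covered a wide range. Scgb1a1, the major secretoglobin of club cells, had 85187 ± 5088 TPM (SD, n = 4) in control lungs, followed by Cyp2f2 with 2238 ± 157 TPM and Scgb3a2, a secretoglobin of club cells, with 1621 ± 56 TPM. Together the 10 genes made up between 9.89 and 11.1% of the TPM summed over protein-coding genes in control libraries, between 4.80 and 7.27% in WT bleomycin and between 4.49 and 5.62% in CB1R KO bleomycin libraries. Below these 3 stood Scgb3a1 (425 ± 251 TPM) and Bpifa1 (350 ± 376 TPM), then Bpifb1 (61.0 ± 39.3 TPM), Reg3g (46.8 ± 33.9 TPM) and Ltf (17.0 ± 14.2 TPM), each overlapping its neighbour in the order. Muc5b followed with 8.17 ± 1.82 TPM and overlapped Ltf. Muc5ac was lowest with 0.444 ± 0.042 TPM and did not overlap Muc5b. In WT bleomycin lungs the order changed: Scgb3a2 (1180 ± 282 TPM) stood above Cyp2f2 (877 ± 54 TPM) in 5 of 5 libraries, and Reg3g (228 ± 96 TPM) stood above Bpifb1 (107 ± 38 TPM) in 5 of 5. The plot of log2 CPM, counts scaled to the TMM-normalized library size, shows every library.

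**Figure D1:**
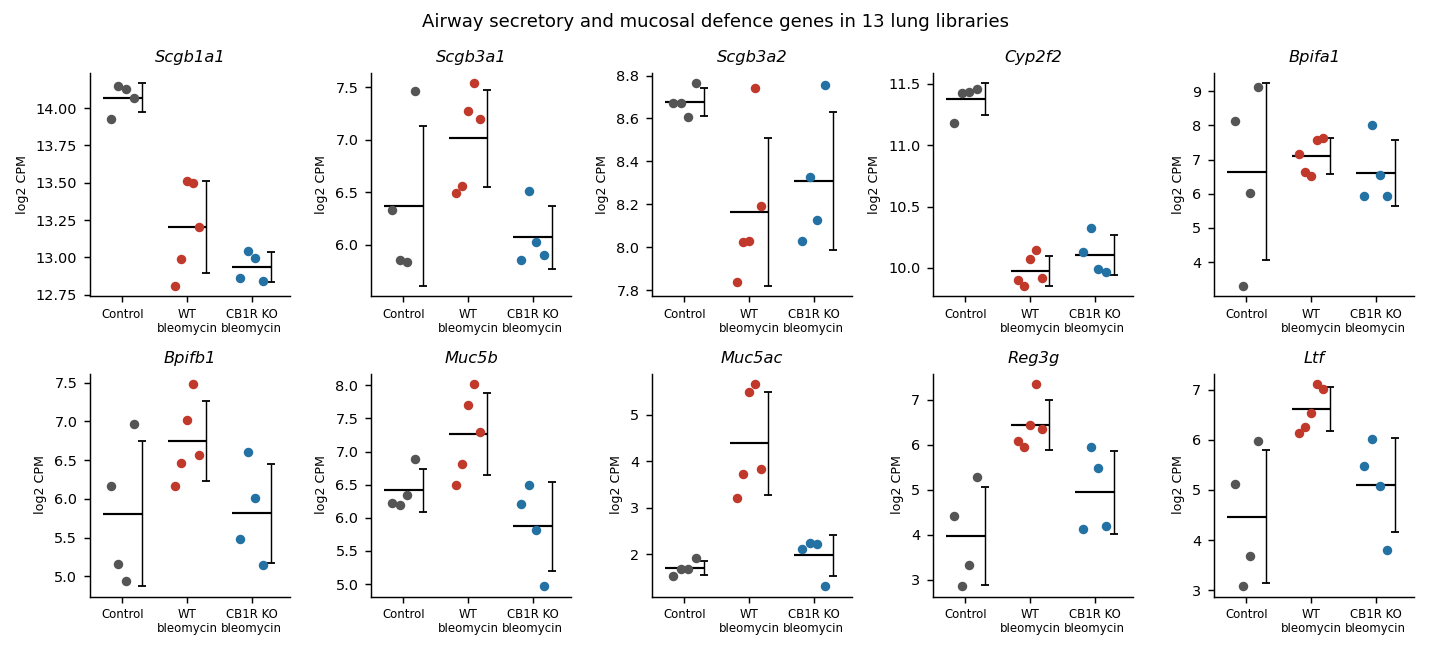
Log2 CPM (vertical axis) of the 10 genes in each of 13 lung libraries, grouped as control (n = 4), WT bleomycin (n = 5) and CB1R KO bleomycin (n = 4). Points are mice, lines are group means and bars are the SD. Scgb1a1 and Cyp2f2 are lower in all bleomycin libraries than in any control, and Muc5ac is higher in the 5 WT bleomycin libraries than in the other 8.

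In WT lungs, 3 club cell genes were lower after bleomycin and both mucins, Reg3g and Ltf were higher, while Scgb3a1, Bpifa1 and Bpifb1 did not pass the test. In edgeR's quasi-likelihood fit, with p adjusted by Benjamini-Hochberg over 15315 genes and a threshold of 0.05, 7 of the 10 genes differed from control, where 48.9% of all genes tested did. Muc5ac, Reg3g, Ltf and Muc5b rose (4 of 10, against 25.0% of all genes) and Cyp2f2, Scgb1a1 and Scgb3a2 fell (3 of 10, against 23.9%). The groups did not overlap for 5 of the 10 (40.3% of all genes). Shares of this size among all genes leave little to be read from the counts of the 10. Between CB1R KO and WT bleomycin lungs 1 gene, Muc5ac, passed the threshold and was lower in libraries labelled CB1R KO, where 0.979% of all genes passed and 0.62% passed as lower. At an unadjusted p under 0.05, 7 of the 10 were lower (Muc5ac, Muc5b, Scgb3a1, Reg3g, Ltf, Bpifb1 and Scgb1a1), where 9.08% of all genes were. Muc5b, Muc5ac and Ltf (3 of 10) were lower without overlap between the groups, as were 3.1% of all genes. The median log2 fold change of the 10 genes was -0.94, and that of all genes tested 0.00. Compared with control, CB1R KO bleomycin lungs differed in 2 of the 10, Scgb1a1 and Cyp2f2, both lower, where 35.4% of all genes differed and 16.3% were lower. The 3 comparisons share libraries, and their values are given side by side.

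**Figure D2:**
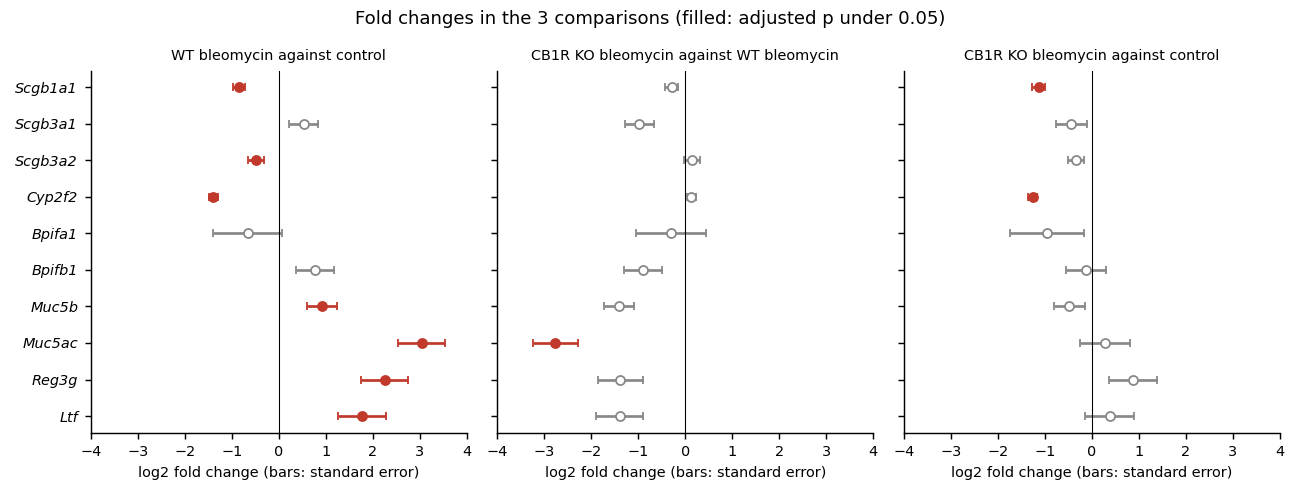
Log2 fold change (horizontal axis) of the 10 genes in the 3 comparisons, with the standard error derived from the quasi-likelihood F statistic as bars. Filled points passed an adjusted p of 0.05. In the middle panel Muc5ac (-2.77) is the filled point.

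Among the club cell genes, Cyp2f2 encodes a P450 that is a classical club cell marker and activates naphthalene. It measured 2315, 2748, 2763 and 2803 CPM in control mice 3, 21, 24 and 26. WT bleomycin mice 4, 2, 5, 4-B2 and 7 had 954, 925, 1075, 1131 and 967 CPM, and CB1R KO mice 8, 9, 10 and 11 had 1122, 1286, 1017 and 1001 CPM. All 9 bleomycin libraries lay below all 4 controls, and the bleomycin groups overlapped. In bulk tissue, fewer cells of a type and less RNA per cell cannot be told apart. Cyp2f2 was 2.63-fold lower in WT bleomycin than in control (log2 fold change -1.39, SE 0.09, adjusted p = 8.85e-08) and 2.40-fold lower in CB1R KO bleomycin than in control (-1.26, SE 0.10, adjusted p = 9.52e-07). CB1R KO differed from WT by 0.13 (SE 0.09, adjusted p = 0.50).

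Scgb1a1, which encodes the club cell secretory protein, had 15606, 18136, 17862 and 17198 CPM in the control mice in the same order. WT bleomycin libraries had 7173, 8145, 11682, 11591 and 9428 CPM and those labelled CB1R KO 7434, 8451, 8162 and 7357 CPM. Again every bleomycin library lay below every control, and mice 5 and 4-B2 were the highest of the WT group. The log2 fold change was -0.84 in WT bleomycin (SE 0.13, adjusted p = 0.000121) and -1.13 in CB1R KO bleomycin against control (SE 0.14, adjusted p = 4.19e-05). Between the bleomycin groups it was -0.29 (SE 0.13, adjusted p = 0.285), with overlapping libraries.

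Scgb3a2 fell less. It ranged from 389 to 434 CPM in control, from 228 to 428 CPM in WT bleomycin and from 261 to 432 CPM in CB1R KO bleomycin lungs. Mouse 4-B2 of the WT group and mouse 11 of the CB1R KO group had control levels, whereas the other 7 bleomycin libraries, at 321 CPM or less, lay below every control. The change in WT lungs was -0.48 (SE 0.17, adjusted p = 0.0281), and without any 1 of control 21, control 26, WT 4, WT 2 or WT 5 the adjusted p was between 0.0507 and 0.0661. CB1R KO lungs differed from control by -0.34 (SE 0.18, adjusted p = 0.148) and from WT bleomycin by 0.14 (SE 0.17, adjusted p = 0.717). The difference from control passed in 1 of 26 alternative fits, the edgeR fit without CB1R KO mouse 11 (adjusted p = 0.0358).

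Scgb3a1, a secretoglobin of the larger airways, did not follow Scgb1a1. It ranged from 57.1 to 177 CPM in control, from 89.8 to 186 CPM in WT bleomycin and from 57.6 to 91.0 CPM in CB1R KO bleomycin lungs. Control mouse 26 alone lay above 80.4 CPM in its group. The difference between WT bleomycin and control was 0.53 (SE 0.31, adjusted p = 0.176), and without control 26 it was 1.04 (adjusted p = 0.00321). Over 26 alternative fits it ran from 0.36 to 1.04, and 24 of them left it short of the threshold. In libraries labelled CB1R KO it was -0.98 against WT bleomycin (SE 0.32, adjusted p = 0.145) and -0.44 against control (SE 0.33, adjusted p = 0.315). For the first of these, 25 of 26 alternative fits fell short of the threshold. The 1 that passed was DESeq2 fitted to these 2 groups alone (adjusted p = 0.000578). As a percentage of Scgb1a1 in TPM, Scgb3a1 stood at 0.294 to 0.955% in control, 1.07 to 1.47% in WT bleomycin and 0.714 to 0.991% in CB1R KO bleomycin libraries, and the WT range did not overlap the others.

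Of 11 other club and secretory cell genes tested, 8 fell and 1, Pigr, rose (0.66, adjusted p = 0.0186) in WT bleomycin lungs, with a median log2 fold change of -0.72 where that of all genes was -0.01. Cyp4b1 (-1.96, adjusted p = 8.82e-07), a P450 of club cells, Cbr2 (-1.90, adjusted p = 1.77e-06), a carbonyl reductase, Cyp2a5 (-1.81, adjusted p = 0.00494) and the secretoglobin Scgb1c1 (-1.28, adjusted p = 0.000316) fell most. Cyp2a5 has close paralogs, so its share of reads is uncertain. Between CB1R KO and WT bleomycin 0 of the 11 passed in edgeR (4 at an unadjusted p under 0.05, and 1 in DESeq2), with log2 fold changes between -0.81 and 0.78, and against control 8 fell and 1, Upk3a, rose (1.64, adjusted p = 0.02) in CB1R KO lungs. Upk3a was low, with means of 0.33 CPM in control and 1.03 CPM in CB1R KO bleomycin. Markers of ciliated cells, the neighbours of club cells, also had lower summed levels after bleomycin: 774 to 845 TPM in control, 452 to 603 TPM in WT and 430 to 628 TPM in CB1R KO libraries. Of these 12 markers 2 fell in WT bleomycin lungs, Tppp3 (-1.21, adjusted p = 9.00e-06) and Tekt1 (-0.35, adjusted p = 0.0119), and 0 rose. The median log2 fold change of the 12 was -0.15. Tppp3 had a mean of 317 CPM in control and 137 CPM in WT bleomycin, and Tekt1 one of 12.1 and 9.50 CPM. A sum follows its most abundant genes. Against control, 5 of the 12 fell in CB1R KO bleomycin lungs. The part of ciliated cells in the fall of the club cell genes was not tested.

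Of the secreted gel-forming mucins, Muc5ac gave the most marked pattern. Muc5ac, which is induced in mucous cells, had 2.79, 3.12, 3.14 and 3.67 CPM in control mice 3, 21, 24 and 26. The WT bleomycin mice 4, 2, 5, 4-B2 and 7 had 9.12, 13.2, 44.4, 50.6 and 14.1 CPM, and the CB1R KO mice 8, 9, 10 and 11 had 4.25, 4.64, 4.60 and 2.38 CPM. Every WT bleomycin library lay above all 8 others, and CB1R KO mouse 11 lay below every control. The values rest on 47 to 57 estimated counts per library in control, 144 to 731 in WT bleomycin and 65 to 129 in CB1R KO bleomycin. Muc5ac was 8.24-fold higher in WT bleomycin than in control (log2 fold change 3.04, SE 0.50, adjusted p = 0.000166). It was 6.82-fold lower in CB1R KO than in WT bleomycin lungs (-2.77, SE 0.48, adjusted p = 0.0219), and CB1R KO bleomycin differed from control by 0.27 (SE 0.53, adjusted p = 0.724). The second of these calls was lost in 8 of 26 alternatives. It was lost without WT mouse 5 (-2.49, adjusted p = 0.0565), CB1R KO mouse 8 (-2.82, adjusted p = 0.0786), 9 (-2.87, adjusted p = 0.0774) or 11 (-2.54, adjusted p = 0.0777), and among the 10 libraries with lower-case labels, which leave out control 26, WT 4-B2 and WT 7, it was -2.53 (adjusted p = 0.0977). With label style as a term it was -2.56 (adjusted p = 0.0554). In limma it was -1.36 on the log2(TPM + 1) scale (adjusted p = 0.0675), which understates changes at this low level, and -2.19 on the log2(TPM + 0.1) scale (adjusted p = 0.0595).

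Muc5b, the mucin that healthy airways secrete all the time, had 74.6, 73.2, 81.5 and 118 CPM in the control mice. WT bleomycin mice had 90.3, 112, 207, 260 and 157 CPM and CB1R KO mice had 73.6, 90.3, 56.0 and 31.1 CPM. Mice 5, 4-B2 and 7 of the WT group lay above all controls, mice 4 and 2 lay within them, and all CB1R KO libraries lay below all WT ones, with CB1R KO mouse 9 and WT mouse 4 almost equal. The rise in WT bleomycin was 0.93 (SE 0.32, adjusted p = 0.0255). It had an adjusted p between 0.0576 and 0.0724 without any 1 of controls 3, 21 or 24 or WT mice 5 or 4-B2, and of 0.0809 among lower-case labels. CB1R KO differed from WT bleomycin by -1.41 (SE 0.32), a 2.66-fold lower level whose adjusted p was 0.0552 in edgeR and 0.00691 in DESeq2 fitted to the same 3 groups. Without WT mouse 4 it was -1.56 (adjusted p = 0.0305 in edgeR). Of 26 alternative fits 4 passed the threshold and 22 did not, with log2 fold changes from -1.64 to -1.13. Against control the CB1R KO difference was -0.48 (SE 0.33, adjusted p = 0.282).

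The balance of the mucins shifted as well. Muc5ac stood at 4.35 to 7.07% of Muc5b in TPM in control libraries, at 12.5 to 30.0% in WT bleomycin and at 7.35 to 11.5% in CB1R KO bleomycin, and these 3 ranges did not overlap. Mice 5 and 4-B2 had the highest ratio. Both mucin genes lie next to each other on chromosome 7 in RefSeq. Among the other mucins, which are mostly membrane-bound, 3 of 6 tested rose in WT bleomycin, including Muc4 (1.45, adjusted p = 3.00e-05), and 1 fell, Muc16 (-0.66, adjusted p = 0.015). Of these, 0 passed between CB1R KO and WT bleomycin in edgeR or DESeq2 (1 at an unadjusted p under 0.05), where their log2 fold changes ran from -0.58 to -0.09.

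Goblet cell and mucus production genes rose in WT bleomycin lungs in 6 of 10 tested and fell in 0, with a median log2 fold change of 1.49. Clca1, a secreted protein of mucous cells, rose by 3.59 (SE 1.05, adjusted p = 0.0111), Fcgbp, a protein of the mucus gel, by 3.36 (SE 0.58, adjusted p = 0.000269), Gp2 by 3.34 (SE 0.40, adjusted p = 1.17e-05) and the anion exchanger Slc26a4 by 2.37 (SE 0.50, adjusted p = 0.00121). Between CB1R KO and WT bleomycin 1 of the 10 passed: Fcgbp was lower by -2.50 (SE 0.54, adjusted p = 0.0416). All 7 that had an unadjusted p under 0.05 were lower there, and DESeq2 called 2. Fcgbp had 1.28 to 2.96 CPM in control, 7.54, 9.39, 43.3, 20.8 and 9.38 CPM in WT mice 4, 2, 5, 4-B2 and 7 and 1.42 to 4.64 CPM in CB1R KO mice. WT mice 5 and 4-B2 were thus the highest for Fcgbp as they were for Muc5ac. Against control, 3 of the 10 rose in CB1R KO bleomycin lungs, namely Gp2 (2.09, adjusted p = 0.00149), Creb3l1 (0.57, adjusted p = 0.0335) and Slc26a4. Slc26a4 reached 43.2 to 54.7 CPM in CB1R KO bleomycin and 36.7 to 49.8 CPM in WT bleomycin lungs, a difference of 0.18 (SE 0.43, adjusted p = 0.864), and its difference between CB1R KO bleomycin and control was 2.56 (adjusted p = 0.00152). Control mouse 21 stood above the other controls for Clca1 (32.2 CPM, against 0.36 to 1.93 CPM) and Slc26a4 (23.7 CPM, against less than 4 CPM), but not for Muc5ac.

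**Figure D3:**
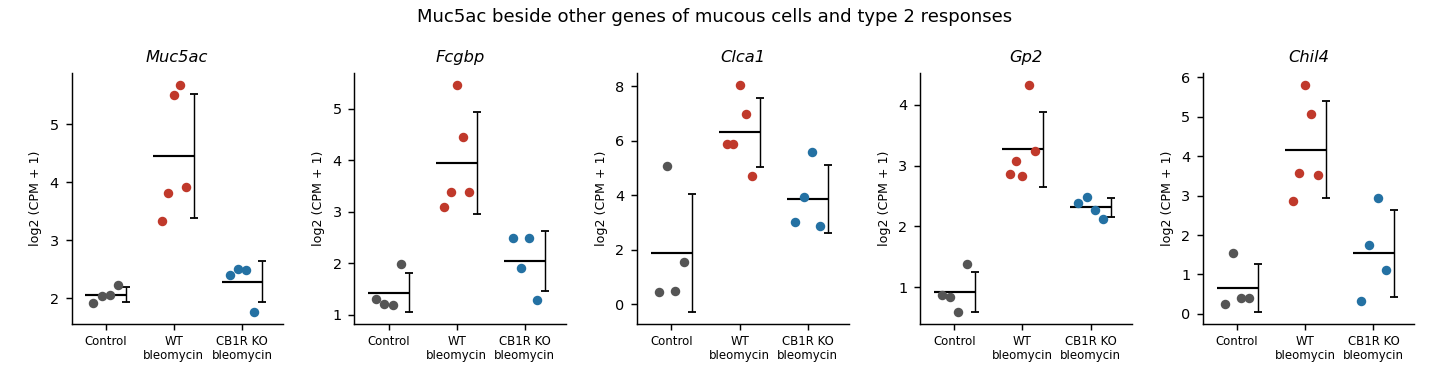
Log2 (CPM + 1) of Muc5ac beside Fcgbp, Clca1, Gp2 and Chil4 in the 13 libraries. Points are mice, lines are group means and bars are the SD. For Muc5ac and Fcgbp the WT bleomycin libraries lie above all others, with mice 5 and 4-B2 highest.

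Type 2 cytokine pathway genes rose in 5 of 7 tested in WT bleomycin and fell in 1. The chitinase-like gene Chil4 (5.04, SE 0.94, adjusted p = 0.000488), Retnla (3.74, SE 0.58, adjusted p = 0.000105), the growth factor Areg (2.18, adjusted p = 0.000212) and the receptor Il4ra (1.48, adjusted p = 1.34e-06) changed most. Chil4 had 0.18 to 1.92 CPM in control, 6.33, 10.9, 55.4, 32.3 and 10.4 CPM in WT mice 4, 2, 5, 4-B2 and 7 and 0.26 to 6.71 CPM in CB1R KO mice, so that mice 5 and 4-B2 were again highest. In edgeR 0 of the 7 passed between CB1R KO and WT bleomycin, with 3 lower at an unadjusted p under 0.05 and 2 called by DESeq2. Chil4 had a log2 fold change of -3.21 there (SE 0.78, adjusted p = 0.065), and Retnla, with 174 to 364 CPM against 396 to 1033 CPM in WT, one of -1.72 (SE 0.52, adjusted p = 0.122). Against control, 5 of the 7 rose in CB1R KO bleomycin lungs, among them Retnla (2.01, adjusted p = 0.0113), Areg (1.96, adjusted p = 0.00115) and Il4ra (0.93, adjusted p = 0.000209), and 1, Stat6, fell (-0.25, adjusted p = 0.0171). The cytokines themselves were near the limit of detection: Il13 had 0 to 5 estimated counts per library and Il4 between 1 and 8.13, and both were left out by the filter. Of 18 airway transcription factors and Notch genes, 4 rose and 7 fell in WT bleomycin, with Sox9 (1.61, adjusted p = 0.000484) and Foxa1 (-0.63, adjusted p = 0.000798) among them, and 0 passed between CB1R KO and WT in edgeR (3 at an unadjusted p under 0.05, and 1 in DESeq2).

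Among the defence proteins, Reg3g, a lectin that binds Gram-positive bacteria, had 21.3, 7.09, 9.93 and 38.5 CPM in control mice 3, 21, 24 and 26. WT bleomycin mice 4, 2, 5, 4-B2 and 7 had 67.3, 61.2, 86.5, 164 and 81.0 CPM, and CB1R KO mice 8, 9, 10 and 11 had 17.3, 61.9, 44.5 and 18.1 CPM. All WT bleomycin libraries exceeded all controls, and CB1R KO mice split into 2 near the control level and 2 above it. Reg3g rose 4.79-fold in WT bleomycin (2.26, SE 0.50, adjusted p = 0.00193). It differed by -1.39 between CB1R KO and WT bleomycin (SE 0.48, adjusted p = 0.161) and by 0.87 between CB1R KO bleomycin and control (SE 0.51, adjusted p = 0.20). Without control 26 that last difference was 1.45 (adjusted p = 0.046), and among lower-case labels 1.46 (adjusted p = 0.0389). Over 26 alternative fits it ran from 0.46 to 1.46, and 23 of them left it short of the threshold.

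Ltf, which encodes the iron-binding lactoferrin of secretions and neutrophil granules, had 34.6, 8.35, 12.7 and 63.2 CPM in the control mice. In the WT bleomycin mice it had 70.4, 76.7, 92.7, 139 and 129 CPM and in the CB1R KO mice 44.4, 64.3, 33.6 and 13.9 CPM. The WT bleomycin libraries lay above all 8 others. Ltf rose 3.42-fold in WT bleomycin (1.77, SE 0.51, adjusted p = 0.0107), and by 2.44 without control 26 (adjusted p = 0.0016). Over 26 alternative fits the rise ran from 1.46 to 2.44 and passed the threshold in each. The difference between CB1R KO and WT bleomycin was -1.40 (SE 0.50, adjusted p = 0.18). It passed in 1 of 26 alternative fits, DESeq2 fitted to these 2 groups alone (adjusted p = 0.0434). Between CB1R KO bleomycin and control the difference was 0.38 (SE 0.53, adjusted p = 0.613), or 1.04 without control 26 (adjusted p = 0.133). Over the same fits the difference between CB1R KO bleomycin and control ran from 0.02 to 1.05 and passed in none.

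Of 12 neutrophil markers other than Ltf, 8 were tested, 6 fell and 0 rose in WT bleomycin lungs, with a median log2 fold change of -1.88. Their summed level was 319 to 1740 TPM in control, 214 to 422 TPM in WT bleomycin and 253 to 553 TPM in CB1R KO bleomycin libraries. S100a9 (-2.06, adjusted p = 0.00239), S100a8 (-1.90, adjusted p = 0.00441), Csf3r (-1.89, adjusted p = 0.000658) and Ngp (-2.36, adjusted p = 0.0435) fell in WT bleomycin. Camp, the gene of another granule protein, had at most 1.43 CPM in any library, and Elane at most 0.24 CPM. The highest sums were those of control mice 3 and 26, and S100a8 in controls 21 and 24 (22.5 and 20.8 CPM) lay within the WT bleomycin range of 11.4 to 26.4 CPM. Deviations of Ltf and S100a8 from the group means had a correlation of 0.81 over 13 libraries that share those means. With Bpifb1, Bpifa1, Reg3g and Scgb3a1 that of Ltf was 0.87, 0.86, 0.84 and 0.81, and with the other members it ran from 0.02 to 0.70. Ltf spread most in control (SD 1.32 on the log2 scale, against 0.44 in WT and 0.94 in CB1R KO bleomycin). The part of neutrophils in the level of Ltf was not tested. Between the bleomycin groups 0 of the 8 passed in edgeR or DESeq2, 0 had an unadjusted p under 0.05, and their median log2 fold change was 0.50.

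**Figure D4:**
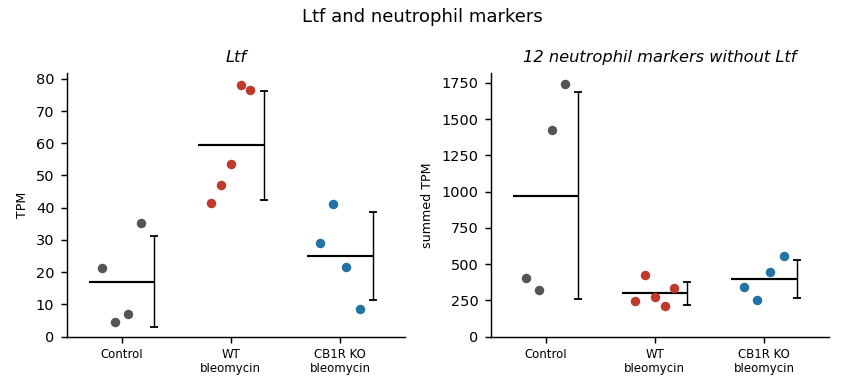
TPM of Ltf (left) and summed TPM of 12 neutrophil markers without Ltf (right) in each library. Points are mice, lines are group means and bars are the SD. Ltf is highest in the 5 WT bleomycin libraries, where the neutrophil sum lies between 214 and 422 TPM, and the highest sums are those of control mice 3 and 26.

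The BPI-fold genes Bpifa1 and Bpifb1, neighbours on chromosome 2 in RefSeq, encode secreted proteins of the upper and larger airways. Bpifa1 had 282, 9.73, 64.2 and 561 CPM in control mice 3, 21, 24 and 26. WT bleomycin mice had 143, 100, 91.6, 192 and 199 CPM, and CB1R KO mice 60.6, 255, 93.7 and 61.5 CPM. The control libraries alone spanned more than both bleomycin groups. Its SD in control was 2.58 on the log2 scale, larger than that of 99.9% of the genes tested, and no difference between groups could be seen beyond it: -0.66 in WT bleomycin against control (SE 0.73, adjusted p = 0.482), -0.31 in CB1R KO against WT bleomycin (SE 0.74, adjusted p = 0.867) and -0.96 in CB1R KO bleomycin against control (SE 0.78, adjusted p = 0.36). Without control 26 the first of these became 0.28 and the third -0.02, and without CB1R KO mouse 9 the second became -1.01 and the third -1.67, and none of these passed the threshold. The mean of the log2 CPM values was 7.11 in WT bleomycin and 6.64 in control.

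Bpifb1 ranged from 30.7 to 125 CPM in control, from 72.0 to 179 CPM in WT bleomycin and from 35.3 to 97.3 CPM in CB1R KO bleomycin lungs, all overlapping. Its difference was 0.78 in WT bleomycin against control (SE 0.40, adjusted p = 0.124), or 1.28 without control 26 (adjusted p = 0.0144). Over 26 alternative fits this difference ran from 0.54 to 1.28, and 25 of them left it short of the threshold. Bpifb1 differed by -0.91 between CB1R KO and WT bleomycin (SE 0.40, adjusted p = 0.269) and by -0.13 between CB1R KO bleomycin and control (SE 0.42, adjusted p = 0.835).

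Other BPI-fold, Reg and secreted antimicrobial genes gave a mixed picture. Of the 30 genes listed, 11 were tested, 4 rose and 3 fell in WT bleomycin. Lcn2, which sequesters bacterial siderophores, rose by 2.21 in WT bleomycin (adjusted p = 8.31e-08) and by 2.20 in CB1R KO bleomycin against control (adjusted p = 3.28e-07). Its 9 bleomycin libraries, with 323 to 469 CPM, lay far above the controls at 73.7 to 118 CPM. Its mean was 397 CPM in WT and 396 CPM in CB1R KO bleomycin lungs, with an SE of 0.13 on the log2 fold change between them. Lyz1, a lysozyme with a close paralog that may share its reads, fell in WT bleomycin (-1.61, adjusted p = 1.13e-05) and was the 1 gene of the 11 that passed between CB1R KO and WT bleomycin, where it was higher (0.97, SE 0.19, adjusted p = 0.0314). At an unadjusted p under 0.05, 3 were higher and 1, Dmbt1, was lower there, and DESeq2 called 3, Lyz1, Lyz2 and Dmbt1. The summed level of the list was 7229 to 8363 TPM in control, 8011 to 10894 TPM in WT bleomycin and 11369 to 12633 TPM in CB1R KO bleomycin libraries. Such a sum follows its most abundant genes. Between CB1R KO and WT bleomycin the median log2 fold change of the 11 tested genes was 0.005. IL-17 and IL-22 pathway genes rose in 5 of 11 and fell in 1 in WT bleomycin, led by the chemokine Ccl20 (2.99, adjusted p = 0.000357), and 0 passed between CB1R KO and WT in edgeR or DESeq2 (1 at an unadjusted p under 0.05). Il22 had at most 1 estimated count in any library, and Il17a at most 2.

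The 10 genes varied between control mice in 2 recognisable ways. Scgb1a1, Scgb3a2 and Cyp2f2 were steady in control lungs, with SDs of 0.10, 0.07 and 0.13 on the log2 scale where the median of all genes was 0.15. Bpifa1 (2.58), Ltf (1.32), Reg3g (1.09), Bpifb1 (0.94) and Scgb3a1 (0.76) spread widely there, each with an SD above that of at least 96.8% of the genes tested. In WT bleomycin lungs Scgb1a1 (0.31) and Scgb3a2 (0.35) lay above the median SD of 0.16, and Cyp2f2 (0.12) below it. In CB1R KO bleomycin lungs Scgb1a1 had an SD of 0.10, Scgb3a2 0.32 and Cyp2f2 0.17, where the median was 0.17. Control mouse 26 was highest in its group for 9 of the 10 genes, and mouse 21 was lowest for 4. WT mouse 4-B2 was highest for 8, mouse 4 lowest for 7, CB1R KO mouse 9 highest for 9 and mouse 11 lowest for 6. Mice 26 and 4-B2 are 2 of the 3 with labels in capitals, and there is none among CB1R KO mice. Control mice 3 and 26, the upper pair for Bpifa1, Bpifb1, Reg3g, Ltf and Scgb3a1, also had the highest S100a8 (120 and 115 CPM, against 22.5 and 20.8 CPM in mice 21 and 24), and the part of this in the spread was not tested. Muc5ac showed another order, being steady in control (SD 0.16) and spread widely in WT bleomycin (SD 1.11).

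**Figure D5:**
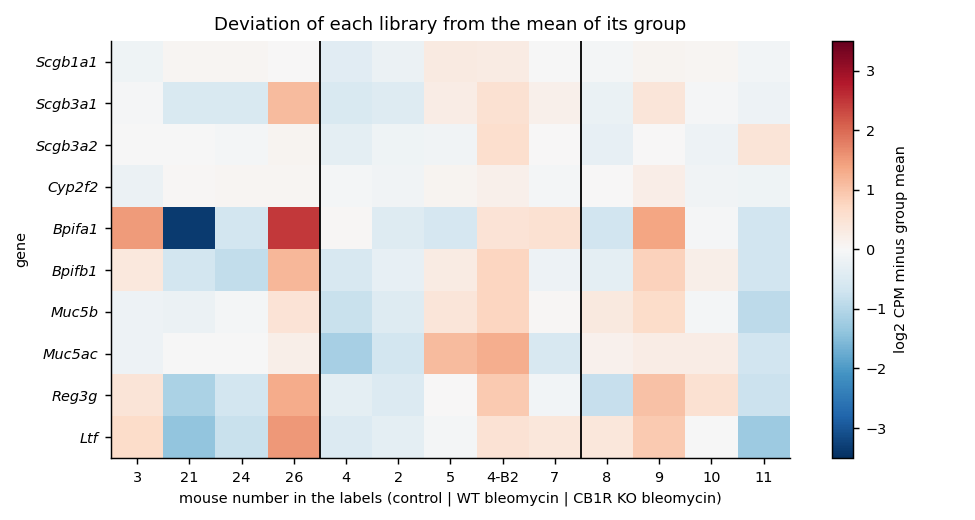
Log2 CPM of each gene (rows) in each library (columns) minus the mean of the library's group, with red above and blue below that mean. Control mice 26 and 3 are above and 21 and 24 below the mean for Bpifa1, Bpifb1, Reg3g and Ltf, and WT mice 5 and 4-B2 are above it for Muc5ac and Muc5b.

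Likeness between mice was described by the correlation of such deviations over the 13 libraries, which share the groups' means and their sequencing. The genes most like Reg3g were Bpifb1 (r = 0.94), A2ml1 (0.93) and Got2 (0.92), and for Scgb3a1 they were Bpifb1, Tff2 and Cnbd2 (all 0.91). Muc5ac was most like Dnaaf1 (0.93), Scgb1a1 (0.91) and Tmem11 (0.90), and Muc5b most like Dmkn (0.95), Eya2 (0.92) and Uvrag (0.90). Cyp2f2 was most like Ptpn13 (0.92), Bpifa1 most like Dsc2 (0.92), Ltf most like Ankrd66 (0.90) and Scgb3a2 most like Smagp (0.90). Over all 15315 genes tested, the best match of a gene had a median r of 0.92, so values of this size are ordinary in 13 libraries.

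The libraries held between 14615904 and 16662580 estimated counts, except CB1R KO mouse 11 with 53463884, which was 3.33 times the median of the others. Cnr1, the deleted gene, had 0.65 TPM or more in each library labelled CB1R KO and 0.85 to 1.85 TPM in WT bleomycin libraries, so that a total per gene does not check the genotype. Of 9 type II alveolar markers 6 fell and 1 rose in WT bleomycin against control, and 3 were higher in CB1R KO than in WT bleomycin lungs, including Sftpc (0.66, adjusted p = 0.0289), where 8 were higher at an unadjusted p under 0.05 and DESeq2 called 7. Airway basal cell markers had summed levels of 3.95 to 10.7 TPM in control, 7.37 to 16.1 TPM in WT bleomycin and 5.37 to 9.72 TPM in CB1R KO bleomycin libraries. In edgeR 1 of 7, Krt17, rose in WT bleomycin (2.85, adjusted p = 0.00047). At an unadjusted p under 0.05, 4 of the 7 were higher there and 0 lower, and DESeq2 called 3. Krt17 was low, with means of 0.14 CPM in control and 1.05 CPM in WT bleomycin. Single values per mouse were also compared with a two-sided exact permutation test, whose smallest possible p was 0.0159 for 4 against 5 mice and 0.0286 for 4 against 4. Cyp2f2, Scgb1a1, Muc5ac, Reg3g and Ltf reached 0.0159 between WT bleomycin and control, and Muc5ac, Muc5b and Ltf between CB1R KO and WT bleomycin. Adjusted over the 30 such tests by Benjamini-Hochberg, the lowest p was 0.0595.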

How the data were processed

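Lung RNA of 13 mice was sequenced by the authors as paired-end NEBNext Ultra II libraries and quantified with Kallisto on the Ensembl mouse reference (GRCm39 in the submitters' processing notes). The deposited tables give estimated counts and TPM per gene symbol, summed by the authors over protein-coding transcripts. Counts were not normalized, and 62.1% of them were not whole (tolerance 0.01). The 13 single-sample tables equalled the series tables, and 1 column that matches no sample was not used.

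Estimated counts were rounded, filtered with filterByExpr (15315 of 20270 genes) and fitted with edgeR 4.0.16 (R 4.3.3; TMM, quasi-likelihood, 1 coefficient per group, no covariates, Benjamini-Hochberg over the genes tested, adjusted p of 0.05). CPM used TMM library sizes, and log2 CPM a prior count of 2. The SE of an edgeR log2 fold change is its absolute value divided by the square root of the quasi-likelihood F statistic. Alternatives were other filters and normalizations, DESeq2 1.42.0, limma 3.58.1 on log2(TPM + 1) and log2(TPM + 0.1), edgeR on 2 groups or with robust estimation, mouse 11 thinned, label style as a term, lower-case labels only, and each library left out. The fit was tested on simulated data. Upstream sequences came from RefSeq (GRCm38.p6), which is not the authors' build and was used for sequence only. Python 3.11.15, pandas 2.3.3, numpy 2.4.6, scipy 1.17.1 and matplotlib 3.10.9 made tables and plots.

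All 10 genes were named. From 7 pathway lists and 8 marker lists, up to 4 genes past the threshold with the largest change per comparison were named, besides cytokines under the filter and the 3 genes most like each member. Sftpc, Camp, Elane, Pigr, Stat6, Lyz2 and the values of listed genes in comparisons they did not pass were added after their values were seen. The genes and lists were chosen with earlier results of these data known, and Ltf stands in the neutrophil list as well. Cages and batches of the mice are not given in the sources used here, so p-values measure the spread between these mice, which may be partly technical. Results of some marker genes are not reported here.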

Additional observations from a re-analysis of the deposited data

Results flagged for a closer look

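In 30 groups of 4 or 5 libraries (10 genes in 3 groups), the most extreme library was compared with its neighbours by Dixon's ratio of the gap to the range, which chance alone passes in about 1 of 20 groups. Cyp2f2 in control mouse 3 stood apart with a ratio of 0.897: it had 2315 CPM where the other 3 controls had 2748 to 2803 CPM. Muc5ac in CB1R KO mouse 11 stood apart with a ratio of 0.867: it had 2.38 CPM where the other 3 had 4.25 to 4.64 CPM, and this library is also the deepest of the 13.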

How the results depend on the processing

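Of the 30 single-gene differences, each under 26 alternatives, 732 of 780 fits kept direction and side of the threshold, 19 lost and 13 gained significance and 16 reversed. The number of the 10 genes called was 7 between WT bleomycin and control and 2 between CB1R KO bleomycin and control. It stayed within 1.5 times in every alternative, but not always with the same genes. In the first comparison Scgb3a2 lost its call in 5 alternatives and Muc5b in 6, while Scgb3a1 gained one in 2 and Bpifb1 in 1. In the second, Reg3g was called higher with label style as a term, with lower-case labels only and without control 26. Scgb3a2 was called lower there without CB1R KO mouse 11. Between CB1R KO and WT bleomycin, where 1 of the 10 genes and 150 of all genes passed, counts depended on the processing, and the cause was not tested. Of the 10 genes, 2 passed with no count filter, 2 with DESeq2 on 3 groups and 4 with DESeq2 on 2 groups (Muc5ac, Muc5b, Scgb3a1 and Ltf). With limma on log2(TPM + 1), limma on log2(TPM + 0.1), label style as a term or lower-case labels only, 0 passed. Of all genes, 640 passed with DESeq2 on 3 groups, 644 with DESeq2 on 2 groups, 81 with limma on log2(TPM + 1), 3 with limma on log2(TPM + 0.1), 88 with edgeR on 2 groups, 41 with label style as a term and 6 with lower-case labels only. Leaving out 1 library gave 0 to 2 of the 10 genes and 1 to 653 of all genes, the lowest without CB1R KO mouse 9 and the highest without mouse 10.

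Reversed differences were all ones that did not pass. Bpifa1 in WT bleomycin against control was 0.48 with limma on log2(TPM + 1), 0.50 on log2(TPM + 0.1) and -1.06 to 0.28 when single libraries were left out, the highest without control 26. In CB1R KO against WT bleomycin it was 0.30 with label style as a term and 0.073 with lower-case labels, and in CB1R KO bleomycin against control 0.011 and 0.027 with limma on the same 2 scales. Scgb3a2 in CB1R KO against WT bleomycin was -0.031 without CB1R KO mouse 11 and up to 0.31 without another library. In CB1R KO bleomycin against control, Scgb3a1 was 0.072 with lower-case labels and -0.62 to 0.066 with single libraries left out, the highest without control 26. Bpifb1 was 0.072 and 0.075 with limma on the 2 scales, 0.22 with label style as a term, 0.38 with lower-case labels and -0.45 to 0.38 with single libraries left out, being above 0 without control 26 or CB1R KO mouse 11.

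No paired analysis was possible because the groups compared share no mouse numbers. Muc5ac rested on under 60 counts per control library, and the CB1R KO libraries all have lower-case labels. The standard error of a single gene of the 10 reached 0.78, for Bpifa1 between CB1R KO bleomycin and control. Its difference of -0.96 there did not pass (adjusted p = 0.36 in edgeR), so differences of about 1 on the log2 scale could not be resolved for Bpifa1.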

Other observations

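Cell types that share the airways or alveoli with club cells gave the following counts, as a description. Of 5 tuft cell markers 3 were tested, and 2 rose in WT bleomycin against control, Dclk1 (1.92, adjusted p = 3.27e-07) and Trpm5 (1.25, adjusted p = 0.00226). Trpm5 was low, with means of 0.57 CPM in control and 1.37 CPM in WT bleomycin. The summed level of the 5 markers was 4.66 to 6.76 TPM in control, 12.9 to 16.6 TPM in WT bleomycin and 9.93 to 14.3 TPM in CB1R KO bleomycin libraries. Of 7 type I alveolar markers 5 fell and 1 rose in each bleomycin group against control. Among 3 tested markers of airway cartilage and smooth muscle, Actg2, a smooth muscle actin, rose in WT bleomycin (1.09, adjusted p = 2.60e-05) and was lower in CB1R KO than in WT bleomycin lungs (-0.80, adjusted p = 0.0231), while Myh11 fell in WT bleomycin (-0.58, adjusted p = 0.00589). The cartilage markers Col2a1, Acan, Matn1 and Cnmd had under 1 CPM in every library.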
